A study of Mus musculus with 4 samples.

Results

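The inter-alpha-trypsin inhibitor family was read as 7 genes of the 49997 in the count tables: the heavy chain genes Itih1, Itih2, Itih3, Itih4 and Itih5, the light chain gene Ambp, and Pzp, a plasma protease inhibitor of the alpha-2-macroglobulin family that was read with them. All 7 were found by symbol. They were picked for their family and for their levels in these same libraries, with 6 of them (Itih1 to Itih4, Ambp and Pzp, called the hepatic members below) set against Itih5. The difference between treated and untreated libraries in these 7 genes is therefore given as a description, without a test. The libraries were made from poly(A) RNA of cultured mouse aorta-gonad-mesonephros tissue (AGM), the part of the embryo where blood stem cells arise, taken from C57BL/6J embryos. There were 2 untreated libraries and 2 from explants kept for 48 hours with 5 µM CCCP, a protonophore that dissipates the mitochondrial membrane potential, and the labels name no other agent or allele that separates the groups. All explants were kept at a gas-liquid interface in MyeloCult medium with hydrocortisone for the same 48 hours. The protocol gives E10.5 and E11.5 embryos without saying which sample had which, and whether the replicates came from separate litters is not given, so the spread between replicates may be technical. The labels give the cell type as embryonic stem cells of the blood, but the extraction is described for explants, and the RNA is read here as that of the explant.

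Inter-alpha-trypsin inhibitors are plasma complexes in which heavy chains are joined through a chondroitin sulfate chain to bikunin, a Kunitz-type protease inhibitor. Bikunin is cut from the Ambp precursor, whose other product is alpha-1-microglobulin. TSG-6, the product of Tnfaip6, moves heavy chains from bikunin onto hyaluronan, where they stabilise the pericellular matrix. Itih1 to Itih4, Ambp and Pzp are textbook products of the liver, which in the mid-gestation embryo buds close to the AGM, while Itih5 is known from many tissues outside the liver.

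The members lay at 4 places in the genome (coordinates of the count tables, build mm10). Itih4 (chromosome 14, 30886476 to 30901986, plus strand), Itih3 (chromosome 14, 30908572 to 30923787, minus strand) and Itih1 (chromosome 14, 30929180 to 30943289, minus strand) formed a cluster with gaps of 6585 and 5392 bases. Itih2 (chromosome 2, 10094591 to 10130683, minus strand) and Itih5 (chromosome 2, 10153536 to 10256529, plus strand) stood head to head, 22852 bases apart, with no other gene of the tables between them. Ambp lay alone on chromosome 4 (63143275 to 63154172, minus strand) and Pzp on chromosome 6 (128483567 to 128526720, minus strand). Exon lengths ran from 1267 bases for Ambp and 3089 to 3309 bases for the 4 hepatic heavy chains to 4681 bases for Pzp and 7935 bases for Itih5. Pzp alone had an exon shared in position with another gene, Gm10069 on the opposite strand. In GENCODE transcripts, 4.47% of the 50-base stretches of the longest Pzp transcript occurred in Gm10069. The Pzp count is uncertain, because the counting used no strand and dropped reads that touch 2 genes. The share of reads dropped under the RefSeq annotation used for counting was not measured. Of the other members, Itih5 had 0.0509% of its stretches in another transcript and the remaining 5 had 0.

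Sequence upstream of the transcription start was taken from RefSeq (GRCm38.p6, the same assembly), which held all 7 members. Its start is that of the count tables in 5 members, but lies 7 bases inside the Itih5 gene and 200 bases inside the Itih3 gene as the count tables place them, so the last 7 bases shown for Itih5 lie within the gene as counted. The 250 bases before the RefSeq start held 1 to 3 CpG dinucleotides in the 6 hepatic members and 7 in Itih5. Over the 32536 distinct promoter windows of RefSeq the median was 6, and 37.4% of them held 3 or fewer. Motifs known from liver promoters were looked for on both strands. GTTAAT, the core of the HNF1 site, occurred in Itih1 (bases 27 to 22 before the start) and at 2 places in Pzp, and in 6.43% of all 32851 promoter windows. TTGCNNAA, a C/EBP motif, occurred in Itih2 (bases 33 to 26) and in 9.56% of all windows. CAAAGTCC (HNF4), TGTTTAC (FOXA) and TATAAA (the box bound by TBP) occurred in none of the 7 members, and in 1.20%, 3.17% and 12.4% of all windows. The 110 bases before the RefSeq start are shown for the head-to-head pair Itih2 and Itih5, which differed in level as described below, and for Itih1, Itih4 and Pzp, which had at most 11 counts in a CCCP library. Itih3 and Ambp held no match, and neither is shown; the same stretch of Itih3 would lie within its gene in the count tables. Capitals mark the HNF1 and C/EBP matches, and each sequence is written 5′ to 3′ on the strand of its gene.
Itih2, chr2:10130684-10130793, minus strand: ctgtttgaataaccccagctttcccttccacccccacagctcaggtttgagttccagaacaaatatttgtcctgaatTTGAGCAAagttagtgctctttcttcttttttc
Itih5, chr2:10153433-10153542, plus strand: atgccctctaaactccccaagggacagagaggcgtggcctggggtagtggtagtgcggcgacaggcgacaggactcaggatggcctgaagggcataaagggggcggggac
Itih1, chr14:30943290-30943399, minus strand: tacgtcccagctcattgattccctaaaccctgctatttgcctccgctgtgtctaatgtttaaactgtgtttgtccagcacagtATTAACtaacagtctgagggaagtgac
Itih4, chr14:30886366-30886475, plus strand: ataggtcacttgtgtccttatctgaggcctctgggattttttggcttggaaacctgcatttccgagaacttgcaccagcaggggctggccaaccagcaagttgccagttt
Pzp, chr6:128526721-128526830, minus strand: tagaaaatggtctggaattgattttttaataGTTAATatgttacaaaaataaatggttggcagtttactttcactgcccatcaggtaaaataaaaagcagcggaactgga
The HNF1 match of Itih1 lies close to the start and that of Pzp further upstream, while Itih4 and Itih5 hold no match in this stretch. A match is a string of letters and was not tested as a binding site.

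The libraries held 37360968 to 48827826 counted reads, and TMM scaling factors lay between 0.966 and 1.04. Values per library are given as CPM (counts scaled to library size with TMM), where a count of 3, used as the floor of detection, stands for 0.0599 to 0.0827 CPM. Markers of AGM blood and endothelium (Runx1, Gata2, Gfi1, Kit, Cdh5, Pecam1, Kdr, Ptprc) were present in every library, with a summed level of 427 and 526 CPM untreated and 410.5 and 403 CPM with CCCP. The least counted of them, Gfi1, reached 0.107 to 0.247 CPM. Ptprc, the pan-leukocyte antigen CD45, was lower with CCCP, at 3.65 and 3.39 CPM against 6.85 and 6.82 CPM (log2 fold change -0.96, SE 0.237, edgeR adjusted p 0.216). It was the one marker of this list that DESeq2 called (adjusted p 0.0459), against 3.32% of the genes with a DESeq2 adjusted p-value. Of the 7 markers that passed the filter on low counts, 2 (Ptprc and Kdr) were lower in both CCCP libraries than in both untreated ones, against 24.8% of all genes.

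Each of the 6 hepatic members was lower in either CCCP library than in either untreated library. CCCP means were between 0% and 7.64% of the untreated means. Itih5, the member with the widest known expression outside the liver, was at 63.3% of its untreated mean. Groups without overlap in this direction made up 24.8% of the 19837 genes tested, and nothing is read from the members' count against that share, since it helped to choose them. In bulk RNA, fewer cells of a type and less RNA per cell cannot be told apart.

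In the untreated libraries Itih2 was the most abundant heavy chain. Its level was 60.4 and 35.9 CPM in untreated replicates 1 and 2, against 0.577 and 2.07 CPM in CCCP replicates 1 and 2. Both CCCP libraries were far below both untreated ones, and the fitted log2 fold change was -5.23 (SE 0.587). Itih2 encodes heavy chain 2, which joins heavy chain 1 on bikunin in the main plasma complex. Itih3, the heavy chain of a smaller complex called pre-alpha-inhibitor, had 16.6 and 9.47 CPM untreated and 0.0824 and 0.386 CPM with CCCP, on 4 and 14 counts. Its log2 fold change was -5.87 (SE 0.649), and untreated replicate 1 was again the higher of the untreated libraries.

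Itih1, which encodes heavy chain 1, was counted 153 and 68 times without treatment (3.06 and 1.82 CPM) and 0 times in either CCCP library. Set against the floor of 3 counts per library, its level was at least 33.7-fold lower with CCCP. It was the sole member with no count in a whole group. Itih4 encodes a heavy chain that lacks the attachment site for bikunin and circulates on its own as an acute-phase protein. It had 195 and 103 counts untreated (3.90 and 2.75 CPM) and 2 counts in each CCCP library. The ratio of pooled counts was 72.2-fold, with a 95% counting interval of 27.9 to 267. Since both reads of a pair may have been counted, the interval was also taken with pairs as 1 fragment each (1 fragment in each CCCP library), which gave 19.8 to 606.

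Ambp, the light chain gene, stood at 29.1 and 19.8 CPM untreated and at 0.762 and 2.98 CPM with CCCP, the latter on 37 and 108 counts. The groups were well apart, but with a log2 fold change of -3.74 (SE 0.606) Ambp kept the largest share of its untreated level among the hepatic members, 7.64%. Pzp had 11.6 and 4.14 CPM untreated and 0.227 and 0.110 CPM with CCCP, on 11 and 4 counts. Its untreated libraries were the most unlike of the 7 genes, at a ratio of 2.79, and its log2 fold change was -5.48 (SE 0.685). The median log2 fold change of the 6 hepatic members was -5.67, or -5.36 with Itih1 set at its bound, beside -0.0077 for all genes tested.

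Itih5 stood at 19.8 and 23.7 CPM untreated and at 12.5 and 15.0 CPM with CCCP, on 544 to 993 counts. The groups did not overlap, and the gap was small beside that of the hepatic members, with a log2 fold change of -0.66 (SE 0.187). Genes in the same decile of exon length had a median of -0.20, and the value relative to them was -0.46. In Itih5 replicate 2 was the higher untreated library, at a replicate 1 to 2 ratio of 0.837, whereas in the 6 hepatic members replicate 1 was higher, by 1.41 to 2.79 times.

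**Figure D1:**
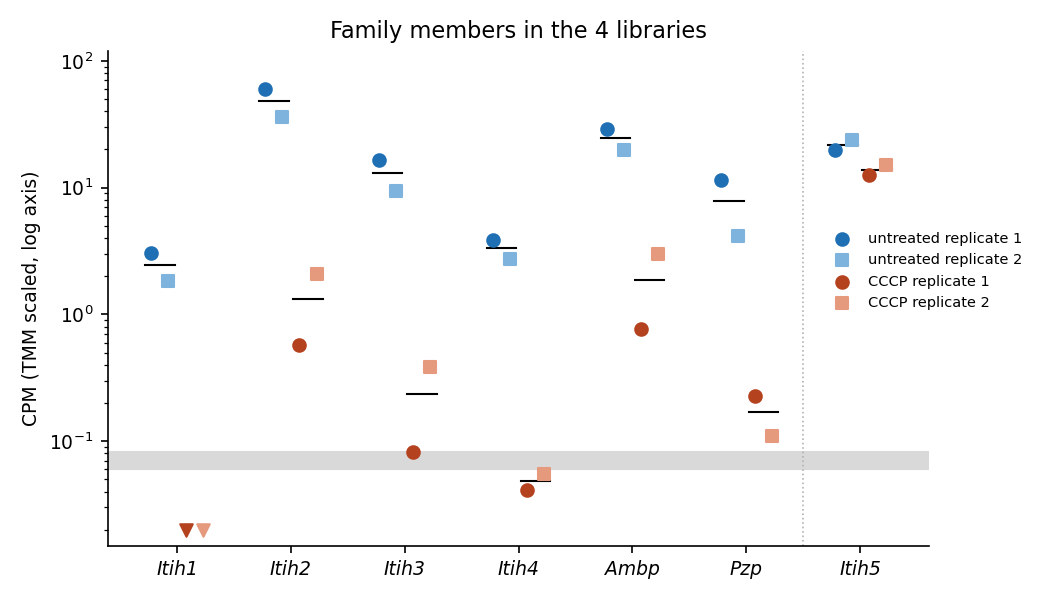
CPM of each member (log axis) in the 4 libraries, with short black lines for group means; triangles at the foot of the axis stand for 0 counts and the grey band is the level of 3 counts. The CCCP points lie below the untreated points for all 7 genes, from 0% of the untreated mean for Itih1 to 63.3% for Itih5.

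By edgeR's quasi-likelihood test 0 of the 7 members, and 0.00% of the 19837 genes, had an adjusted p-value under 0.05. At an unadjusted p under 0.05, 7 of 7 members and 9.16% of all genes were lower with CCCP, and 0 members and 5.45% of all genes were higher. DESeq2 called 6 of the 7, all but Itih5, and 3.32% of the genes to which it gave an adjusted p-value. These counts come from the contrast that helped to choose the members and support nothing about them. Leaving out 1 library moved the size by over 1.5 times in 4 members. Leaving out CCCP replicate 1 or CCCP replicate 2 gave log2 fold changes of -4.53 or -6.37 for Itih2, -5.06 or -7.25 for Itih3 and -3.03 or -4.99 for Ambp, and leaving out CCCP replicate 1 or untreated replicate 1 gave -6.11 or -4.55 for Pzp.

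Per kilobase of exon (RPKM, CPM divided by exon length), which allows levels to be set between genes, the untreated order was Ambp at 19.3, Itih2 at 15.4, Itih3 at 3.93, Itih5 at 2.74, Pzp at 1.68, Itih4 at 1.05 and Itih1 at 0.789 on average. The ranges of Ambp and Itih2 over the untreated libraries overlapped, with 23.0 and 15.7 against 19.3 and 11.49 RPKM. Itih3 (5.00 and 2.86) overlapped with Itih5 (2.50 and 2.99), Pzp (2.47 and 0.885) with Itih4 (1.23 and 0.870), and Itih4 with Itih1 (0.989 and 0.589). Itih2 and Itih3, and Itih5 and Pzp, did not overlap. Within each untreated library Ambp was above Itih2, Pzp above Itih4 and Itih4 above Itih1, whereas Itih3 and Itih5 changed order. In the CCCP libraries Itih5 averaged 1.74 RPKM, Ambp 1.48, Itih2 0.424, Itih3 0.0708, Pzp 0.0360 and Itih4 0.0152, with Itih1 at 0 counts. Itih5 and Ambp overlapped there, with 1.58 and 1.89 against 0.602 and 2.35 RPKM.

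The make-up of the heavy chain transcripts thus differed between the groups. Itih2 took 66.5% and 61.1% of the summed heavy chain RPKM untreated and 10.2% and 24.7% with CCCP. Itih5 took 8.60% and 15.9% untreated and 87.7% and 70.4% with CCCP. The ratios among the hepatic heavy chains were alike in the untreated pair, where Itih2 stood at 19.5 times Itih1 in both libraries and at 3.86 and 4.02 times Itih3. In the CCCP libraries Itih2 stood at 7.42 and 5.68 times Itih3, on few counts of Itih3. The light chain gene was near parity with Itih2, the most abundant heavy chain gene, in untreated explants, with Ambp at 1.19 and 1.36 times Itih2. With CCCP Ambp stood at 3.26 and 3.55 times Itih2. The light chain was not set against the sum of the heavy chains.

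**Figure D2:**
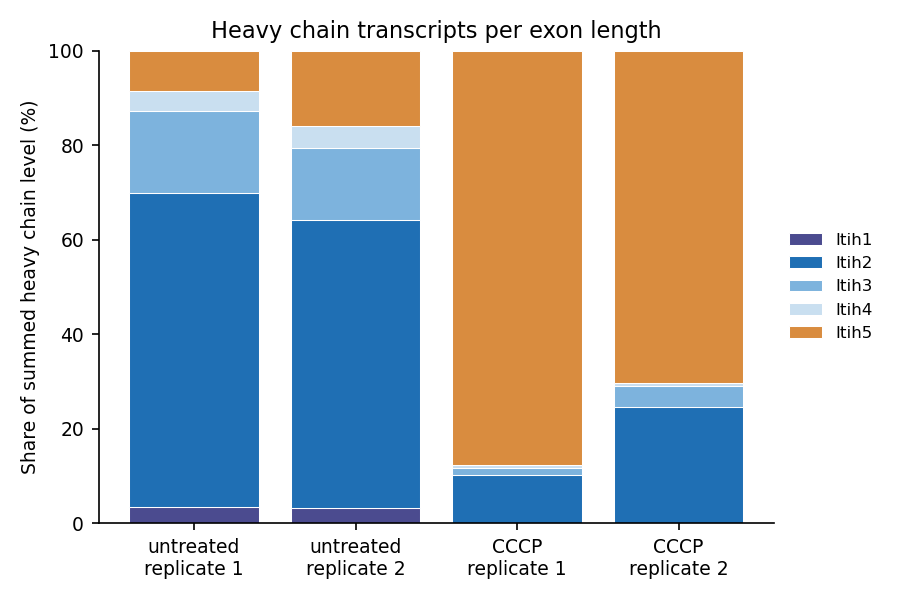
Share of each heavy chain gene in the summed heavy chain RPKM (percent, bars stacked to 100%) in each library. Itih2 fills 66.5% and 61.1% of the untreated bars, and Itih5 fills 87.7% and 70.4% of the CCCP bars.

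Hepatic markers moved with the members. Of 16 hepatocyte and hepatoblast markers (Alb, Afp, Ttr, Apoa1, Apoa2, Apob, Ahsg, Trf, Fgb, Fga, Fgg, Serpina1a, Serpinc1, F2, Hnf4a, Rbp4), all 16 were lower in either CCCP library than in either untreated one, as were 24.8% of all genes. Their summed level was 1891 and 1085 CPM untreated and 57.3 and 119 CPM with CCCP, and their median log2 fold change was -4.71. Ahsg and Fga were at 0 in CCCP replicate 1, and no marker was at 0 in both CCCP libraries. The part of liver cells in the result was not tested. The summed CPM of the 6 hepatic members was 6.59% and 6.81% of that of the markers untreated and 2.95% and 4.69% with CCCP. Trf alone gave 47.1 and 38.3 CPM of the marker sum with CCCP and was at 21.8% of its untreated mean. The share in CCCP replicate 1 thus rests mainly on Trf. These shares are not read as a larger fall of the members than of the markers. Markers of visceral yolk sac endoderm, another embryonic source of plasma proteins, summed to 112 and 90.2 CPM untreated and 89.4 and 82.1 CPM with CCCP. Dab2 alone gave 96.1 and 64.8 CPM of this sum untreated and 70.7 and 64.9 CPM with CCCP. Lrp2 gave most of the rest, and each other marker stayed at or below 2.36 CPM in every library. The sum thus rests mainly on Dab2, and whether yolk sac endoderm was present or unchanged was not tested. Of the 8 listed, 6 passed the filter on low counts. Of those 6, 1 (Rhox5) was lower in both CCCP libraries than in both untreated ones, against 24.8% of all genes. None of the 8 was at 0 in both CCCP libraries.

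What was left of the hepatic transcripts differed between the CCCP libraries. Itih2 was 3.58 times higher in CCCP replicate 2 than in replicate 1 (95% counting interval 2.29 to 5.75, or 1.92 to 7.26 with both reads of a pair taken as 1 fragment). Ambp was 3.91 times higher (2.67 to 5.84, or 2.22 to 6.79 by fragments). Itih3 gave 4.68 times. Its interval by reads, 1.47 to 19.5, left out 1, but by fragments its interval of 0.892 to 46.2 took in 1. Itih4 gave 1.34 times on 2 counts each and Pzp 0.487 times on 11 and 4 counts. Their intervals by fragments were 0.0170 to 105 and 0.0440 to 2.49. A difference between the CCCP libraries was thus not detectable at this depth in Itih4 and Pzp, and in Itih3 it depended on how pairs were counted. The marker Alb, the main plasma protein gene, was 67.6 times higher in CCCP replicate 2 and Afp, its fetal counterpart, 26.5 times. The median over the 14 markers counted in both was 3.35 times, and 12 of the 14 were higher in replicate 2.

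**Figure D3:**
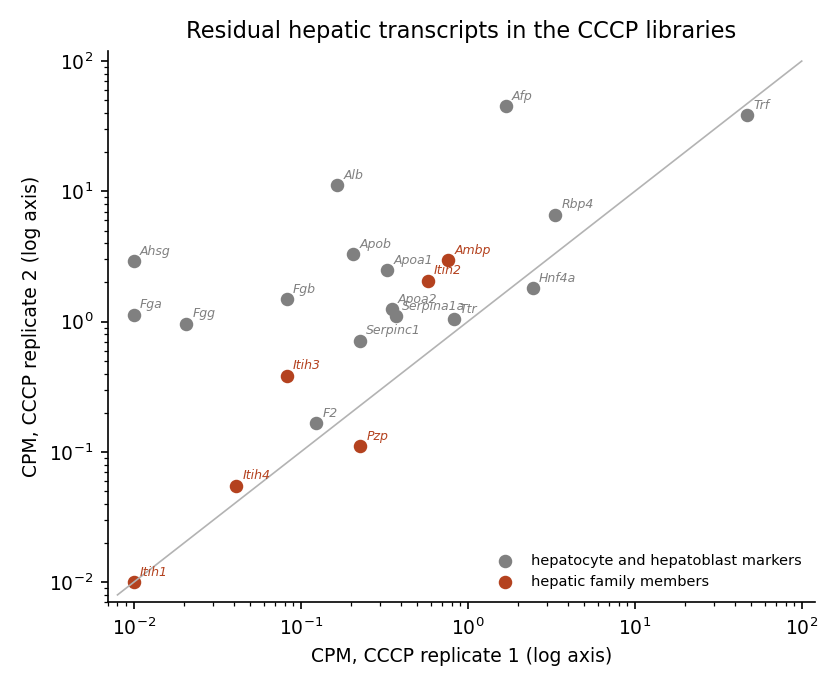
CPM of the 6 hepatic members (red) and 16 hepatic markers (grey) in CCCP replicate 1 (x) and replicate 2 (y), both on log axes, with the line of equal level; genes with 0 counts are drawn at the edge. Itih2 and Ambp lie above the line by 3.58 and 3.91 times and Alb by 67.6 times.

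For Itih5, markers of cells outside the liver were read. Of 9 mesenchyme markers, 3 (Dcn, Lum and Postn) were lower and 1 (Twist1) was higher in both CCCP libraries than in both untreated ones. Over all genes tested, 24.8% were lower and 24.0% higher in this way, and nothing is read from the counts of markers. The summed level of the 9 overlapped between groups, at 5595 and 3230 CPM untreated and 4633 and 3537 CPM with CCCP. This sum rests mainly on Col1a1, Col1a2 and Col3a1, with 887, 1494 and 2303 CPM in untreated replicate 1. By log2 fold change 8 of the 9 were negative and 1 positive, with a median of -0.19, where 50.8% of all genes were negative. Mesothelium markers summed to 72.5 and 61.0 CPM untreated and 74.4 and 75.1 CPM with CCCP, and smooth muscle markers to 179 and 140 CPM untreated and 175 and 250.4 CPM with CCCP. The groups of the mesenchyme and smooth muscle sums overlapped, while the mesothelium sum was higher in both CCCP libraries than in both untreated ones. Acta2 gave most of the smooth muscle sum, with 125 and 90.4 CPM untreated and 118 and 185 CPM with CCCP. None of the marker lists was at 0 in either group. The part of these cells in the level of Itih5 was not tested.

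Genes beside the members on the chromosome are chosen by position and can be tested. The neighbours were the 4 nearest genes on each side that passed the filter on low counts, 32 distinct genes. Genes said below to flank a member are the nearest of these, and genes that failed the filter may lie between. Over the 32, edgeR called 0 at an adjusted p-value under 0.05, as for 0.00% of all genes, and DESeq2 called 0. At an unadjusted p under 0.05, 2 were lower and 2 higher, where 9.16% and 5.45% of all genes were. The neighbours had a median log2 fold change of -0.081, and in 7 of 32 the CCCP libraries lay below and in 8 above the untreated ones without overlap, against 24.8% and 24.0% of all genes. On chromosome 14 the cluster Itih4, Itih3 and Itih1 is flanked by Mustn1, a small nuclear protein gene of muscle and skeleton, and Nek4, a kinase gene. Mustn1 had 1.04 and 1.23 CPM untreated and 1.07 and 1.08 CPM with CCCP. Nek4 had 24.2 and 23.9 CPM untreated and 19.8 and 19.8 CPM with CCCP, a log2 fold change of -0.28 (SE 0.143, edgeR adjusted p 0.414).

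On chromosome 2 the pair Itih2 and Itih5 is flanked by Kin, a DNA-binding protein gene, and Sfmbt2, an imprinted Polycomb gene. Kin, on the side of Itih2, had 22.9 and 21.9 CPM untreated and 22.2 and 19.7 CPM with CCCP. Sfmbt2, on the side of Itih5, had 7.09 and 6.04 CPM untreated and 4.49 and 4.33 CPM with CCCP, with a log2 fold change of -0.57 (SE 0.239, edgeR adjusted p 0.344). Its groups did not overlap and its value was close to that of Itih5. Ambp is flanked by Zfp618 and Kif12, with log2 fold changes of -0.17 (SE 0.143, edgeR adjusted p 0.602) and -0.21 (SE 0.345, edgeR adjusted p 0.796). Among genes that passed the filter, Pzp lies between the pseudogene Stambp-ps1 at -0.20 (SE 0.492, edgeR adjusted p 0.873) and the predicted gene Gm5884 at 0.50 (SE 0.199, edgeR adjusted p 0.330). Gm10069, which overlaps Pzp on the other strand, had 0.759 and 1.36 CPM untreated and 0.927 and 0.965 CPM with CCCP, so its groups overlapped.

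**Figure D4:**
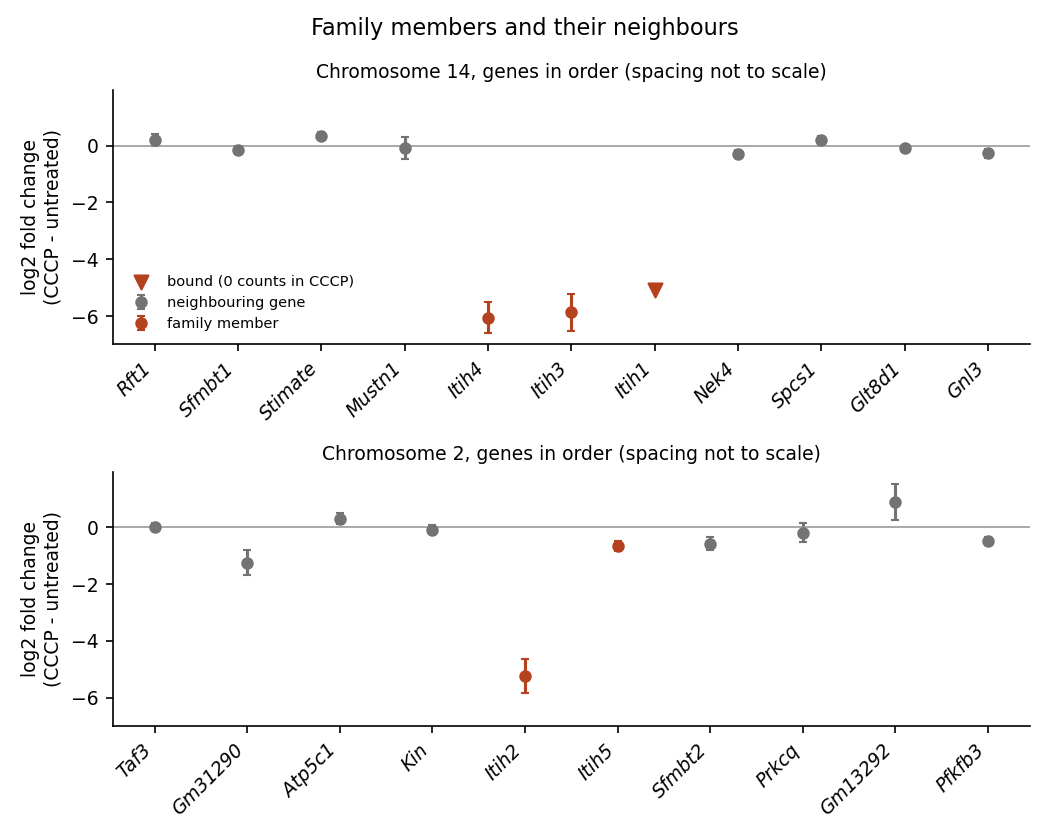
Log2 fold change (CCCP minus untreated, bars are standard errors) of family members (red) and neighbouring genes (grey) in chromosomal order on chromosomes 14 and 2; the triangle is the bound for Itih1. Itih4, Itih3, Itih1 and Itih2 lie at about -5 or below. The nearest genes that passed the filter, Mustn1, Nek4, Kin and Sfmbt2, lie between -0.57 and -0.08, with Itih5 at -0.66.

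Heavy chains act on hyaluronan, so the genes of that partner system were read. Of 21 listed genes, 20 passed the filter on low counts and Spam1, a sperm hyaluronidase, had 0 counts in every library. By edgeR's quasi-likelihood test 0 of the 20 passed in either direction (0.00% of all genes), while 6 were lower and 2 higher at an unadjusted p under 0.05 (9.16% and 5.45% of all genes). DESeq2 called 2 as lower, Vcan and Lyve1, and 3.32% of the genes with a DESeq2 adjusted p-value in either direction. The median log2 fold change of the list was -0.38, beside -0.0077 for all genes, and 16 of 20 values were negative, against 50.8% of all genes. Vcan, the hyaluronan-binding proteoglycan versican, had 896 and 629 CPM untreated and 404 and 449 CPM with CCCP, a log2 fold change of -0.84 (SE 0.199, edgeR adjusted p 0.206). Lyve1, a hyaluronan receptor of lymphatic endothelium and macrophages, had 6.97 and 6.50 CPM untreated and 1.96 and 3.56 CPM with CCCP, a log2 fold change of -1.29 (SE 0.347, edgeR adjusted p 0.230). In both genes the groups were apart.

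The hyaluronan synthase genes were unequal. Has1 had 8.21 and 6.07 CPM untreated and 3.71 and 3.45 CPM with CCCP, and Has2, the main embryonic synthase, 26.1 and 27.6 CPM untreated and 18.1 and 20.5 CPM with CCCP. Their log2 fold changes were -0.997 (SE 0.267) and -0.48 (SE 0.151), with edgeR adjusted p-values of 0.230 and 0.272, and Has3 overlapped between the groups. Tnfaip6, the gene of the heavy chain transferase, went the other way, at 6.19 and 6.12 CPM untreated and 9.15 and 8.52 CPM with CCCP (log2 fold change 0.52, SE 0.209, edgeR adjusted p 0.336). Hyal2, a hyaluronidase anchored at the cell surface, was likewise higher in both CCCP libraries, at 75.4 and 79.9 CPM against 51.9 and 61.0 CPM (log2 fold change 0.46, SE 0.129, edgeR adjusted p 0.242). Hapln3, a link protein gene, and Stab1, a scavenger receptor gene, followed at 0.31 (SE 0.679) and 0.017 (SE 0.204), with edgeR adjusted p-values of 0.859 and 0.978 and overlapping groups.

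**Figure D5:**
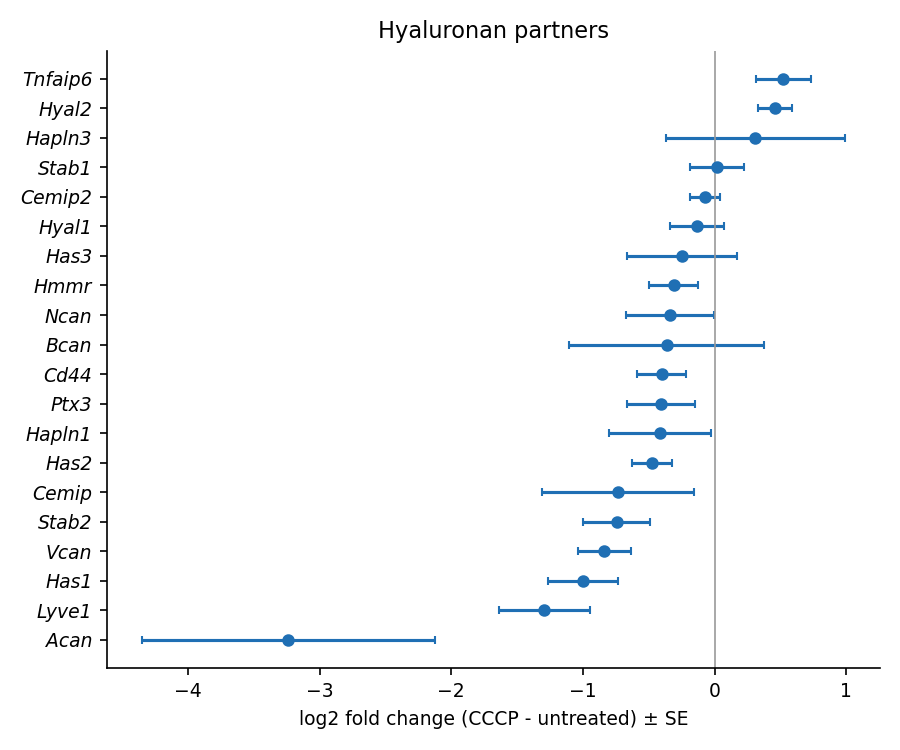
Log2 fold change (CCCP minus untreated) with standard error for the 20 hyaluronan partner genes that passed the filter, in order of value. They run from -3.24 for Acan to 0.52 for Tnfaip6, with 16 of 20 below 0; the value of Acan rests on untreated replicate 1, at 3.56 CPM against 0.374 CPM in untreated replicate 2.

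Relatives of Pzp form the alpha-2-macroglobulin family, whose members trap proteases or, as complement C3 and C5, carry on the complement cascade. Of 12 listed genes of this family and its receptors, 11 were rows of the tables and 8 passed the filter on low counts. By edgeR's quasi-likelihood test 0 of the 8 passed (0.00% of all genes), while 4 were lower and 1 higher at an unadjusted p under 0.05 (9.16% and 5.45% of all genes). The 4 lower were A2m, C3, Hc and C4b, the last on 3 and 4 counts with CCCP. The higher was Hspa5, a chaperone gene listed with the receptors (log2 fold change 0.38, SE 0.151, edgeR adjusted p 0.333). DESeq2 called 3 as lower, A2m, C3 and Hc, and 3.32% of the genes with a DESeq2 adjusted p-value in either direction. A2m had 8.77 and 5.94 CPM untreated and 2.91 and 3.64 CPM with CCCP, a log2 fold change of -1.17 (SE 0.301, edgeR adjusted p 0.227). Pzp, with its 0.227 and 0.110 CPM under CCCP, lay at a lower share of its untreated level than A2m did. Hc, the gene of complement C5, had 5.59 and 2.94 CPM untreated and 2 and 0 counts with CCCP (edgeR adjusted p 0.133). C3 missed the threshold in edgeR with all 4 libraries (adjusted p 0.122) and passed it whichever library was left out. It had 50.1 and 25.9 CPM untreated and 1.34 and 1.68 CPM with CCCP. Mug1, a rodent murinoglobulin gene, did not pass the filter, and Mug2 had 0 counts throughout. Lrp1, the receptor that clears protease complexes of this family, overlapped between the groups, at 919 and 482 CPM untreated and 628 and 549 CPM with CCCP.

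Genes with the most similar pattern over the 4 libraries were named by Euclidean distance between centred log2 CPM values. Nearest to Itih4 were C3 at a distance of 0.682, F2 (prothrombin) at 0.794, Serpinf2 (alpha-2-antiplasmin) at 0.967, Serpinc1 (antithrombin) at 1.03 and Apoa2, an apolipoprotein gene, at 1.18. The same 5 genes were nearest to the mean of the 6 hepatic members, at distances of 0.710 for C3 to 0.847 for Apoa2. For Itih5 the nearest were Larp4 at 0.0416, Ankrd37 at 0.0493, Chml at 0.0601, Zfp850 at 0.0688 and Chd1 at 0.0732. With 4 libraries such likeness is a description of these libraries alone.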

How the data were processed

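RNA of 4 mouse AGM explant libraries, 2 untreated and 2 treated with CCCP, was sequenced. The authors deposited unnormalised read counts for each gene, obtained with featureCounts 2.0.3 and the mm10 RefSeq annotation, per the file headers. No strand and no read-pair option was set there, so each read of a pair was counted singly, although the labels describe a directional kit. HISAT2, SAMtools, FastQC and Subread are named in the submitters' processing notes, with no version given in the sources used here. Exon lengths come from the same deposited tables. Groups follow the sample titles, and the header of untreated replicate 1 differs from its title by a letter, so that the file record was used.

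The fit over all genes used edgeR 4.0.16 in R 4.3.3 (glmQLFit and glmQLFTest, TMM, filterByExpr with a minimum count of 10 and a minimum total of 15, group as the sole term, two-sided, Benjamini-Hochberg, threshold 0.05), and DESeq2 1.42.0 as an alternative. The edgeR step was also run on simulated counts drawn independently for each library. That simulation held no effect shared by same-numbered libraries, so it cannot show how the test performs on libraries that deviate together. All 7 members passed the filter, the hepatic members through the untreated libraries. The standard error is the log2 fold change divided by the square root of F. Log2 CPM used a prior count of 2. An exact permutation test of 2 against 2 libraries has a smallest two-sided p of 0.333 and is not given. Intervals are exact binomial at 95% and cover counting error only, and an alternative chosen after seeing the data divides the counts by 2 and rounds up, with both reads of a pair as 1 fragment. Depth was 37360968 to 48827826 counts per library.

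The members, lists and alternatives were chosen with earlier results of these data known. Named genes are the members, the nearest flanking genes that passed the filter, and the genes of each list that DESeq2 called. For the hyaluronan list they are also those with the 4 smallest p-values in each direction by edgeR. The 5 nearest patterns among genes with a mean CPM of at least 5 are named too. Genes named otherwise were chosen after their values were seen. No protein sequence was used here.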

Additional observations from a re-analysis of the deposited data

How the results depend on the processing

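All 7 members kept their negative direction under each of the 10 alternatives run. The log2 fold change of Itih5 ran from -0.78 to -0.46 over them, with the value nearest 0 after the median of the same exon length decile was subtracted. The median of the 6 hepatic members was -6.30 to -5.09 when each library was left out in turn, the former without CCCP replicate 2. The number of genes called over the whole table was 0 in edgeR, also with DESeq2 size factors and without scaling, but 1107 without a filter on low counts, 594 in DESeq2 and 10 to 46 when each library was left out, where the lone library of a group is assumed to vary like the other group. Within the lists of hyaluronan partners, alpha-2-macroglobulin relatives and neighbours together it was 0, against 8 without the filter, 5 in DESeq2 and 1 to 2 when each library was left out (C3 in each case, and Hc except without untreated replicate 1). The cause was not tested. With the replicate number as a block, the replicate block called 2118 genes (1364 lower, 754 higher), among them all 7 members, and 10 genes of the lists. Same-numbered libraries deviated together (correlation 0.36 over 19837 genes), but the meaning of the numbers is not given in the labels, and with 2 pairs they were not treated as a pairing. With pairs taken as 1 fragment, chosen after seeing the data, the 6 ratios of counts recomputed lay within their counting intervals by reads. Depth limits Itih1, Itih4, Itih3 and Pzp, which had 0 to 14 counts in the CCCP libraries.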

Other observations

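A further row of the family by name, the pseudogene Itih5l-ps, was counted 4 and 2 times untreated and 2 and 0 times with CCCP. Gut and other epithelium markers (Cdh1, Epcam, Cdx2, Krt8, Krt18, Foxa2, Shh) also differed between libraries of the same group, with a summed level of 141 and 250.5 CPM untreated and 202 and 285 CPM with CCCP. Shh alone had 4.08 and 25.8 CPM in untreated replicates 1 and 2, and Foxa2 1.66 and 4.71 CPM, both higher in replicate 2, whereas the hepatic members were higher in replicate 1. Foxa2 was also the one gene of this list with both CCCP libraries, at 1.22 and 1.27 CPM, below both untreated ones (log2 fold change -1.35, SE 0.540, edgeR adjusted p 0.335). Over all genes tested, 24.8% had both CCCP libraries below both untreated ones.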
